A study of Homo sapiens with 9 samples.

Results

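SHC and other receptor adaptor genes were followed as 10 members chosen by symbol: SHC1, SHC2, SHC3, SHC4, GRB2, SOS1, SOS2, GAB1, GAB2 and FRS2. They are 10 of the 62700 genes in the count table, and all 10 passed the filter on low counts. SHC3 and SHC4 passed it only through the fusion libraries, with at most 8 and 9 counts in an empty vector library. Levels came from bulk polyA RNA sequencing of HEK293T, an established line derived from human embryonic kidney and widely used for transfection. A plasmid without an insert (empty vector) was the control, and the other plasmids encoded the fusion HA-CIC::DUX4 or the fusion named HA-CIC(ex20)::NUTM1(ex6), after exon 20 of CIC and exon 6 of NUTM1. CIC, or capicua, represses genes whose DNA it binds, and its fusions to DUX4 or NUTM1 occur in sarcomas. There were 3 libraries per group, each from its own day of reverse transfection, with RNA taken about 48 hours later. All groups shared the cell line, the transfection and the harvest time, the fusions were expressed transiently, and 1 line was used.

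Receptor tyrosine kinases phosphorylate themselves when a ligand binds, and adaptor proteins without enzyme activity read those phosphotyrosines. SHC proteins bind the receptor and are phosphorylated in turn. GRB2 docks on the phosphorylated SHC and carries SOS, the exchange factor that loads RAS with GTP. GAB and FRS2 proteins are docking platforms that hold further enzymes such as PI3-kinase and the phosphatase SHP2 at the receptor. SHC1 is made in most tissues, while SHC2 and SHC3 are known mainly from neurons and SHC4 from brain and melanoma.

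The stretches upstream of the 4 SHC genes are shown because these paralogs differed most among the members. They were taken from RefSeq promoter windows (GRCh38.p14), each written 5′ to 3′ on the gene's own strand, which is the minus strand for all 4 genes. The first 250 bases of each window precede the RefSeq start, and the SHC4 stretch runs past its start to the end of the only match found. Capitals mark a match to TGAATGAA, 1 of the 2 octamers best known as binding sites of CIC, which reads TTCATTCA on the printed strand. The SHC1 stretch, from the first of its 2 windows, is chr1:154974377-154974626, the SHC2 stretch chr19:461034-461283, the SHC3 stretch chr9:89178819-89179068 and the SHC4 stretch chr15:48963915-48964169.
SHC1: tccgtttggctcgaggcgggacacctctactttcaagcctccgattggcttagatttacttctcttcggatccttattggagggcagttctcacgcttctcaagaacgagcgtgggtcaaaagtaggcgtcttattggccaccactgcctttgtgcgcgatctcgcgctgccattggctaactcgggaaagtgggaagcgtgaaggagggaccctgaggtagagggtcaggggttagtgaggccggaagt
SHC2: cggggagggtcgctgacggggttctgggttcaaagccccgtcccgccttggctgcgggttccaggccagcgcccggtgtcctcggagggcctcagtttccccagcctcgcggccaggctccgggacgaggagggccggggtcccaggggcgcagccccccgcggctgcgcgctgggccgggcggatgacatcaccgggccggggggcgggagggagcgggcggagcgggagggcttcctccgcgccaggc
SHC3: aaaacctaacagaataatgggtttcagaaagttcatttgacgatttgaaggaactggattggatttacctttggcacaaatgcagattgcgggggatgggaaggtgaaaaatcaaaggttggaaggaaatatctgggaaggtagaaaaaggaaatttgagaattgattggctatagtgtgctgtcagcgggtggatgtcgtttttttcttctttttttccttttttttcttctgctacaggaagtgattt
SHC4: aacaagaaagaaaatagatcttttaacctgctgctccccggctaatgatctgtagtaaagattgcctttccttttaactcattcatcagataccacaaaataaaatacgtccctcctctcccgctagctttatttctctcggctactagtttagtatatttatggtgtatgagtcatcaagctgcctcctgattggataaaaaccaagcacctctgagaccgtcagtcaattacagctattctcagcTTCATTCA

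The 2 octamers, TGAATGAA and TGAATGGA, were searched on both strands in the 12 windows of 300 bases that 9 of the 10 members had. GAB1 had none. SHC4 was the only member with a match, at chr15:48963915-48963922 on the strand opposite to the gene, across the RefSeq start at position 48963919. That start lies 475 bases upstream of the SHC4 start in GENCODE 29. Of all 35116 windows in the table, 2.63% held 1 of the octamers. The looser form TNAATGNA, which includes both octamers, was found in 11.1% of all windows and again matched the same SHC4 bases alone among the members. These are matches of letters in short windows, and binding was not measured. The printed stretches of SHC3 and SHC4 had a GC content of 38.0% and 39.6%, against 55.2% for SHC1 and 78.0% for SHC2. It was 61.6% in the second SHC1 window, upstream of that start. GC content over all windows was not computed, and a link between it and expression was not tested.

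Total counts per library ranged from 16970771 to 33655445, and 17576 genes were tested. The 7 markers of the HEK293 line had counts in every group, with summed levels of 2332 to 2652 CPM (counts divided by TMM-scaled library size) in empty vector, 1957 to 2097 with CIC::DUX4 and 2035 to 2316 with CIC::NUTM1. Among them EYA1 was called higher (1.73 and 1.21, log2) and NEFM (-0.65 and -0.70) and IRS4 lower with both fusions, and VIM and LHX1 were higher and INA lower with CIC::NUTM1. The summed level of 7 markers of blood, fibroblast, endothelial and liver cells was 0.321 to 0.401 CPM in empty vector, 1.10 to 4.62 CPM with CIC::DUX4 and 1.55 to 3.66 CPM with CIC::NUTM1, with 6, 7 and 7 of the 7 markers holding a count. COL1A2 was the marker at 0 in empty vector, and its 64 counts in CIC::DUX4 replicate 1 were the highest count of the 7 in any library. Of these 7, PTPRC was called higher with both fusions (0, 2 and 0 counts in empty vector, 24, 3 and 3 with CIC::DUX4, and 24, 16 and 13 with CIC::NUTM1), and DCN with CIC::NUTM1. Their part in the results was not tested. Transcripts of the fused genes were not analysed here. In these bulk libraries, more cells with a transcript and more transcript per cell cannot be told apart.

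In empty vector cells the family was carried by SHC1 and SHC2, and SHC3 and SHC4 were close to silent. With each fusion SHC3 and SHC4 rose from traces to group means of 37.9 to 55.1 CPM, while SHC1 and SHC2 were not called in either direction. Against empty vector, 2 of the 10 members were called higher and 0 lower with CIC::DUX4, where 8.24% of all tested genes were called in either direction (edgeR quasi-likelihood test, Benjamini-Hochberg adjusted p under 0.05), 6.96% higher and 1.27% lower. With CIC::NUTM1, 3 members were called higher and 0 lower, where 15.3% of tested genes were called, 11.5% higher and 3.83% lower. No member that was lower reached an unadjusted p under 0.05 in either comparison, and DESeq2 and limma also called 0 members lower. Scaling by library totals alone called 1783 genes higher and 1138 lower with CIC::NUTM1, against 2018 and 673 here, with the same 3 members. Both comparisons use the same empty vector libraries. The median log2 fold change of the 10 members was 0.02 for CIC::DUX4 and 0.01 for CIC::NUTM1, beside -0.0015 and -0.00086 over all tested genes.

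SHC3 (ENSG00000148082, chr9:89005771-89178767, minus strand, GRCh38 with GENCODE 29), a phosphotyrosine adaptor best known from neurons, had 8, 5 and 5 counts in empty vector replicates 1 to 3. Its levels there were 0.458, 0.146 and 0.200 CPM. They were 50.6, 33.8 and 36.7 CPM with CIC::DUX4, and 63.8, 43.0 and 58.5 CPM with CIC::NUTM1. Every fusion library was thus far above every empty vector library. The group means were 0.268 ± 0.166, 40.4 ± 8.98 and 55.1 ± 10.8 CPM (SD, n = 3). SHC3 rose by 7.39 ± 0.31 (SE) on the log2 scale with CIC::DUX4 (edgeR adjusted p = 1.62e-09) and by 7.83 ± 0.31 with CIC::NUTM1 (edgeR adjusted p = 3.71e-10). These were the changes ranked 68 and 54 from the highest among 17576 genes. From the pooled counts, the level was 176-fold higher with CIC::DUX4 (95% interval 111 to 298) and 227-fold higher with CIC::NUTM1 (144 to 384). Those intervals cover counting error only, and the empty vector side rests on 18 counts.

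SHC4 (ENSG00000185634, chr15:48823735-48963444, minus strand) encodes the family member known from brain and melanoma. It had 9, 7 and 1 counts in the empty vector libraries, or 0.515, 0.205 and 0.0401 CPM. With CIC::DUX4 the libraries stood at 45.5, 35.5 and 37.1 CPM, and with CIC::NUTM1 at 46.4, 27.1 and 40.2 CPM. Again no fusion library came near the controls, and CIC::NUTM1 replicate 2 was the lowest of the 6 fusion libraries. Group means were 0.253 ± 0.241, 39.4 ± 5.37 and 37.9 ± 9.85 CPM (SD, n = 3). SHC4 rose by 7.43 ± 0.37 (SE, log2) with CIC::DUX4 (edgeR adjusted p = 6.89e-08) and by 7.37 ± 0.37 with CIC::NUTM1 (edgeR adjusted p = 4.54e-08), ranking 67 and 74. The ratio of pooled counts was 180.3 (95% interval 112 to 310.0) and 164 (102 to 282), from 17 counts in empty vector.

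SHC1 (ENSG00000160691, chr1:154962298-154974395, minus strand), the general SHC adaptor, stood at 46.2, 44.0 and 55.3 CPM in the controls, 54.0, 46.6 and 53.6 CPM with CIC::DUX4, and 48.4, 46.5 and 45.9 CPM with CIC::NUTM1. The 3 groups overlapped. Its log2 fold change was 0.08 with CIC::DUX4 (95% interval -0.11 to 0.28) and -0.05 with CIC::NUTM1 (-0.24 to 0.15). SHC2 (ENSG00000129946, chr19:416583-460996, minus strand), another adaptor known from neurons, was at 15.8, 15.2 and 14.3 CPM in the controls, 13.6, 14.0 and 17.1 CPM with CIC::DUX4, and 16.5, 15.4 and 10.4 CPM with CIC::NUTM1. These ranges overlapped too, with CIC::NUTM1 replicate 3 lowest. The log2 fold changes of SHC2 were -0.02 (-0.34 to 0.29) and -0.10 (-0.41 to 0.22). SHC3 and SHC4 thus rose beside SHC1 and SHC2 in these libraries, and no fall of SHC1 or SHC2 was called. The intervals allow a fall of up to 0.24 for SHC1 and 0.41 for SHC2 on the log2 scale.

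**Figure D1:**
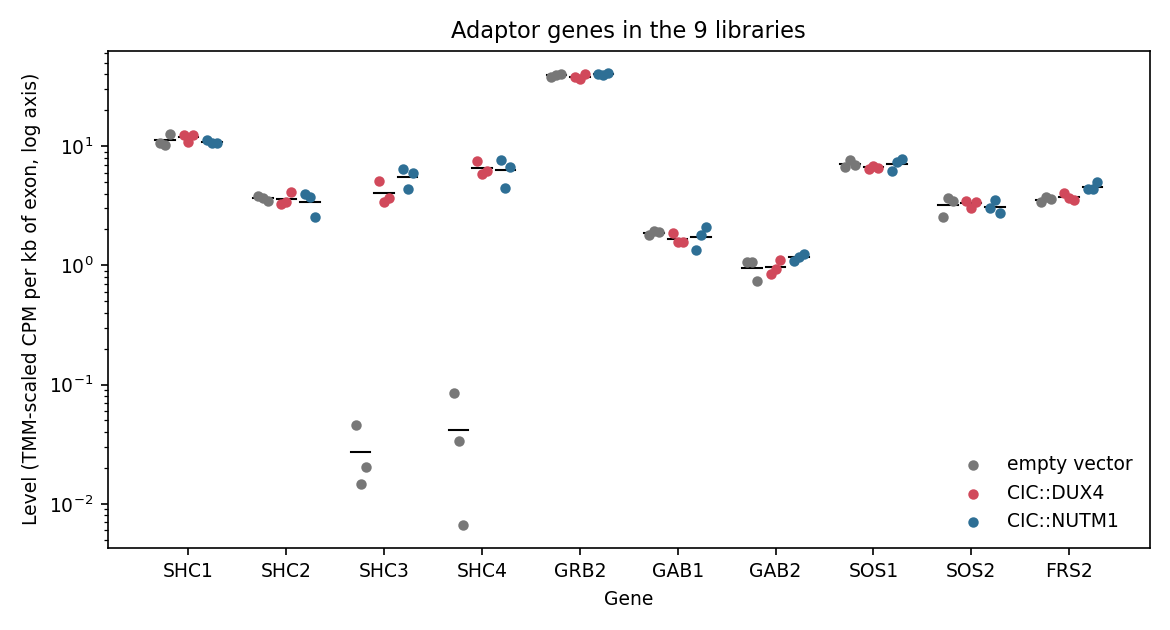
Level of each of the 10 members in the 9 libraries (CPM per kb of exon, log axis); points are libraries, and lines mark group means (n = 3). SHC3 and SHC4 have means of 0.0270 and 0.0418 CPM per kb in empty vector and of 4.06 to 6.49 with the fusions, while the groups of SHC1 and SHC2 overlap.

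To compare the paralogs with one another, counts were divided by exon length (the union of exons in GENCODE 29) and each gene was expressed as a share of the summed SHC1 to SHC4 level per kilobase (kb). SHC3 and SHC4 together made up 0.897%, 0.351% and 0.165% of the family in the empty vector libraries. They made up 44.5%, 39.6% and 37.3% with CIC::DUX4, and 48.2%, 37.9% and 48.9% with CIC::NUTM1. The family was thus nearly all SHC1 and SHC2 in the controls and a mixture of all 4 paralogs with either fusion. The share of SHC1 was 74.9 ± 3.16% in empty vector, 45.6 ± 1.54% with CIC::DUX4 and 41.8 ± 3.98% with CIC::NUTM1 (SD, n = 3). SHC2 held 24.7 ± 2.89%, 14.0 ± 2.11% and 13.2 ± 3.14%. For CIC::DUX4 and then CIC::NUTM1, SHC3 held 15.5 ± 2.14% and 21.2 ± 2.28%, and SHC4 24.9 ± 1.61% and 23.8 ± 3.93%. The order of SHC3 and SHC4 depends on the length used, since by coding length SHC3 held 27.6% and 35.8% and SHC4 25.6% and 23.1%.

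The smaller shares of SHC1 and SHC2 came with overlapping levels of both genes and a larger family total. The summed level of SHC1 and SHC2 was 14.8 ± 1.24 CPM per kb in empty vector, 15.4 ± 1.21 with CIC::DUX4 and 14.2 ± 1.04 with CIC::NUTM1 (SD, n = 3). The summed level of all 4 paralogs was 14.9 ± 1.21, 26.0 ± 2.49 and 26.0 ± 3.01 CPM per kb. By exon length this was a 1.75-fold higher total with each fusion. Its 3 empty vector libraries lay between 13.8 and 16.2 CPM per kb and the 6 fusion libraries between 23.3 and 29.2. The shares and the fold of the total depend on the length used. Without division by length, SHC3 and SHC4 held 54.4% with CIC::DUX4 and 59.9% with CIC::NUTM1. SHC3 and SHC4 have exon lengths of 9929 and 6063 bases, against 4342 and 4131 for SHC1 and SHC2. The fold is therefore larger without that division, and it then differs between the fusions.

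**Figure D2:**
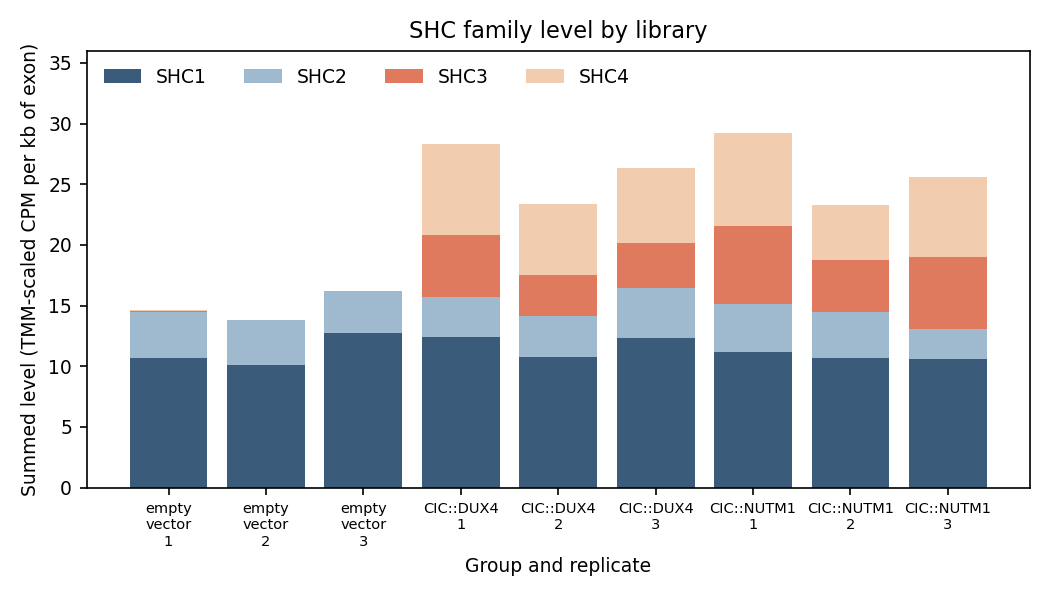
Summed level of SHC1, SHC2, SHC3 and SHC4 in each of the 9 libraries (CPM per kb of exon), stacked by gene. The SHC1 and SHC2 segments are alike in height in all groups, and SHC3 and SHC4 add 37.3% to 48.9% of the total in the fusion libraries.

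GRB2 (ENSG00000177885, chr17:75318076-75405709, minus strand), which links SHC to SOS, was the member with the highest level per length of exon in every group. Its libraries stood at 180.4, 187 and 191 CPM in the controls, 179.8, 172 and 188 CPM with CIC::DUX4, and 188, 186 and 192 CPM with CIC::NUTM1. All groups overlapped, and the log2 fold changes were -0.05 (95% interval -0.17 to 0.07) and 0.02 (-0.10 to 0.14). SOS1 (ENSG00000115904, chr2:38981396-39124345, minus strand), the main RAS exchange factor of this complex, had means of 65.4 ± 5.14, 61.2 ± 1.34 and 65.6 ± 7.82 CPM (SD, n = 3) in empty vector, CIC::DUX4 and CIC::NUTM1. Its paralog SOS2 (ENSG00000100485, chr14:50117120-50231558, minus strand) had 22.3 ± 4.08, 22.9 ± 1.66 and 21.6 ± 2.63 CPM. The exchange factors overlapped between groups as GRB2 did. For SOS1 the log2 fold changes were -0.10 (-0.28 to 0.08) and 0.0038 (-0.18 to 0.18), and for SOS2 0.03 (-0.24 to 0.30) and -0.06 (-0.33 to 0.21).

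FRS2 (ENSG00000166225, chr12:69470349-69579789, plus strand), the docking protein of fibroblast growth factor receptors, was the third member called with CIC::NUTM1. It stood at 24.5, 26.8 and 25.8 CPM in the controls, 29.5, 26.7 and 25.6 CPM with CIC::DUX4, and 31.6, 31.4 and 36.5 CPM with CIC::NUTM1. The CIC::NUTM1 libraries were above all 6 others, and the CIC::DUX4 libraries overlapped with the controls. FRS2 rose by 0.36 ± 0.10 (SE, log2) with CIC::NUTM1 (edgeR adjusted p = 0.0149), a 1.29-fold change. The call was lost without CIC::NUTM1 replicate 3 (edgeR adjusted p = 0.132), empty vector replicate 1 (0.072) or empty vector replicate 3 (0.0546). With CIC::DUX4 its log2 fold change was 0.09 (95% interval -0.13 to 0.30).

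The GAB docking proteins were not called. GAB1 (ENSG00000109458, chr4:143336762-143474568, plus strand), which recruits PI3-kinase and SHP2, had 19.0 ± 0.767, 16.9 ± 1.68 and 17.5 ± 3.76 CPM (SD, n = 3) in empty vector, CIC::DUX4 and CIC::NUTM1. Its log2 fold changes were -0.17 (95% interval -0.45 to 0.12) and -0.11 (-0.40 to 0.17). GAB2 (ENSG00000033327, chr11:78215297-78418348, minus strand), a docking protein of the same family, stood at 7.21, 7.17 and 4.97 CPM in the controls, 5.68, 6.32 and 7.47 CPM with CIC::DUX4, and 7.32, 8.00 and 8.50 CPM with CIC::NUTM1. The CIC::NUTM1 libraries were all above the controls, by a narrow gap, and the log2 fold change of 0.30 was not called (-0.09 to 0.70, edgeR adjusted p = 0.331). For CIC::DUX4 it was 0.0037 (-0.39 to 0.40). Fusion and control libraries were fully apart for 2 members with CIC::DUX4, where this held for 25.7% of tested genes, and for 4 members with CIC::NUTM1, where it held for 31.1%.

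**Figure D3:**
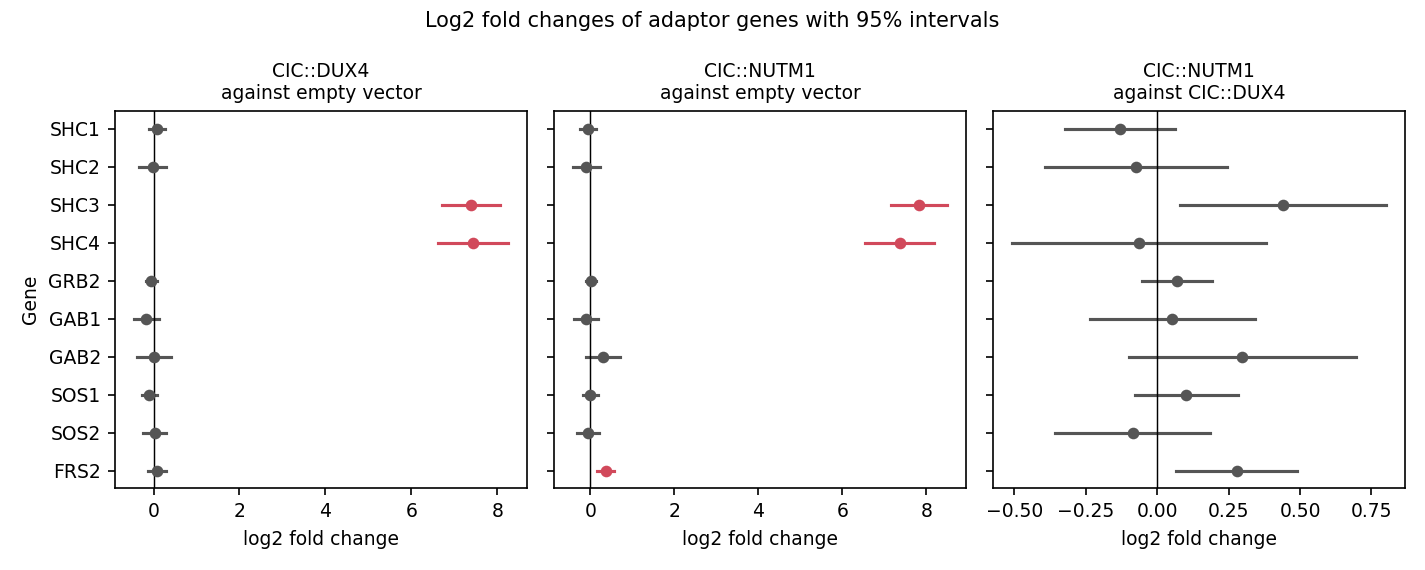
Log2 fold change of each member with its 95% interval (bars; called members in red) for CIC::DUX4 against empty vector, CIC::NUTM1 against empty vector and CIC::NUTM1 against CIC::DUX4. SHC3 and SHC4 lie between 7.37 and 7.83 in the comparisons with empty vector, and the third comparison is drawn on its own scale, where the estimates run from -0.13 to 0.44.

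Ordered by level per kb, the members in empty vector ran from GRB2 (39.5 ± 1.18 CPM per kb, SD, n = 3) and SHC1 (11.2 ± 1.38) through SOS1 (7.06 ± 0.555), SHC2 (3.65 ± 0.181), FRS2 (3.55 ± 0.163) and SOS2 (3.22 ± 0.588) to GAB1 (1.88 ± 0.0758) and GAB2 (0.953 ± 0.190). SHC4 (0.0418 ± 0.0398) and SHC3 (0.0270 ± 0.0168) came last. SHC2, FRS2 and SOS2 did not differ beyond their spread, nor did SHC3 and SHC4. With CIC::DUX4, SHC4 reached 6.49 ± 0.886 and SHC3 4.06 ± 0.904 CPM per kb. The ranges of mean ± SD then overlapped for SHC4 and SOS1 (6.61 ± 0.145). The range of SHC3 overlapped with those of FRS2 (3.77 ± 0.280), SHC2 (3.61 ± 0.465) and SOS2 (3.31 ± 0.239). With CIC::NUTM1 the levels were 6.25 ± 1.63 for SHC4 and 5.55 ± 1.09 for SHC3. These overlapped with each other, with SOS1 (7.09 ± 0.844) and with FRS2 (4.58 ± 0.398). Among the 17034 tested genes with an exon length, 1.91% lay below SHC3 in empty vector, 51.2% with CIC::DUX4 and 58.0% with CIC::NUTM1. Genes removed by the filter on low counts are not in these shares. For SHC4 these shares were 2.59%, 61.6% and 60.6%, and for GRB2 92.9%, 92.8% and 93.1%.

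The fusions were compared directly to ask whether the members responded to them to different extents. In this comparison edgeR called 0 of the 10 members, where 6.61% of tested genes were called, 4.97% higher and 1.64% lower, and DESeq2 and limma called 0 as well. All tested genes split into 874 higher and 288 lower, and into 695 and 437 when scaled by library totals alone. SHC3 and FRS2 had an unadjusted p under 0.05. SHC3 differed by 0.44 ± 0.17 (SE, log2), higher with CIC::NUTM1 (95% interval 0.08 to 0.80, edgeR adjusted p = 0.162), and the libraries overlapped. This difference was called without CIC::DUX4 replicate 1 (0.64, edgeR adjusted p = 0.00978), without CIC::NUTM1 replicate 2 (0.59, edgeR adjusted p = 0.0130) and without the filter on low counts (0.44, edgeR adjusted p = 0.00101). It was also called with the replicate number as a block (0.45, edgeR adjusted p = 0.00643). FRS2 was 0.28 ± 0.10 higher with CIC::NUTM1 (0.07 to 0.49, edgeR adjusted p = 0.119), and it was the only member whose libraries did not overlap, as was the case for 22.0% of tested genes. SHC4 differed by -0.06 ± 0.20 (-0.51 to 0.38, edgeR adjusted p = 0.917). Estimates of the other members ranged from -0.13 for SHC1 to 0.30 for GAB2.

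The tested genes whose pattern over the 9 libraries was most like that of SHC3 were found by the mean absolute difference in log2 CPM, after each gene was centred on its empty vector mean. They were MUC5AC (0.26), a secreted mucin, SMIM24 (0.28) and ENSG00000206249 (0.37), and SHC4 was next with 0.38. For SHC4 the nearest gene was SHC3 (0.38), followed by SMIM24 (0.48) and ENSG00000206249 (0.48). The distance of the other 8 members from SHC3 or SHC4 was 4.77 to 5.07. MUC5AC had 2 counts in all empty vector libraries together. Its pooled ratio was 417 (95% interval 115 to 3450.3) with CIC::DUX4 and 856 (236 to 7074) with CIC::NUTM1. Its fitted log2 fold changes were 8.38 and 9.51, larger than the 7.39 and 7.83 of SHC3. The distances used a prior count of 2, so they understate changes from so few counts. ENSG00000206249 had 0 counts in empty vector and was at least 217-fold higher with CIC::DUX4 and at least 291-fold higher with CIC::NUTM1, against 3 counts over the group. The mean level of SMIM24 was 0.134 CPM in the controls, 30.0 with CIC::DUX4 and 34.2 with CIC::NUTM1.

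Some members share ground with other genes, and the use of strand in counting is not given in the sources used here. SHC4 shares exonic bases with EID1 on the other strand, a gene at 144 CPM in empty vector, 114 with CIC::DUX4 and 115 with CIC::NUTM1. EID1 fell by 0.34 with CIC::DUX4 (edgeR adjusted p = 0.00131) and by 0.32 with CIC::NUTM1 (edgeR adjusted p = 0.00123). Whether reads in the shared bases affect the counts of either gene was not tested. SHC1 shares exonic bases with PYGO2 on the same strand, which fell by 0.31 with CIC::NUTM1 (edgeR adjusted p = 0.00442), and with ENSG00000271380 on the other strand, which was not called. An intron of SHC3 holds ENSG00000224945 on the same strand, a gene named after its values were seen. It had 0, 2 and 0 counts in empty vector, 109, 66 and 71 with CIC::DUX4, and 112, 136 and 106 with CIC::NUTM1. The processed pseudogenes SHC1P1 and SHC1P2 had 0 counts in all 9 libraries.

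Among 50 other adaptor and scaffold genes, 36 were tested. For CIC::DUX4, 8 were called higher and 1 lower, 25% of those tested beside 8.24% of all tested genes, with a median log2 fold change of 0.09. With CIC::NUTM1, 10 were higher and 4 lower, 38.9% beside 15.3%, with a median of 0.06. The 14 untested genes had at most 17 counts in a library. The list was chosen with earlier results of these data known, so its shares are not separate evidence about adaptors. NOSTRIN, CASS4, DOK5 and GRB7 passed the filter on low counts only through the fusion libraries. They had at most 5, 10, 12 and 3 counts in an empty vector library. The genes that rose most with CIC::DUX4 were NOSTRIN (3.73 ± 0.84, SE, log2), CASS4 (3.14 ± 0.49), DOK5 (3.11 ± 0.45), STAP2 (2.93 ± 0.30) and DOK7 (2.83 ± 0.26). DOK7 activates the muscle receptor kinase MuSK, DOK5 is a docking protein of the same family, and CASS4 is a scaffold of the CAS family. Their edgeR adjusted p ranged from 1.69e-07 for STAP2 to 0.00389 for NOSTRIN, and all 5 had empty vector means of 0.0488 to 2.07 CPM. NOSTRIN lost its call without CIC::DUX4 replicate 1 (edgeR adjusted p = 0.0583). Its 5 counts in empty vector were all in replicate 2. Without that library the fitted changes were 7.24 (CIC::DUX4) and 7.40 (CIC::NUTM1), against 0 counts, so the size of the change rests on that library.

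With CIC::NUTM1 the adaptors that rose most were NOSTRIN (3.89 ± 0.84, SE, log2), GRB7 (3.48 ± 1.02), NEDD9 (3.35 ± 0.21), DOK5 (3.18 ± 0.45) and DOK7 (2.43 ± 0.27). GRB7, an SH2 adaptor of the ERBB2 receptor, had 4 counts in empty vector, so its pooled ratio of 11.4 had a wide interval (4.10 to 44.1). With CIC::DUX4 the log2 fold change of GRB7 was 3.11, which was not called (edgeR adjusted p = 0.0651). Its counts there were 30, 3 and 1 in replicates 1 to 3. NEDD9, another scaffold of the CAS family, stood at 1.77, 2.23 and 1.72 CPM in empty vector, 8.01, 5.61 and 6.35 with CIC::DUX4, and 23.5, 15.1 and 21.1 with CIC::NUTM1. The 3 groups did not overlap for NEDD9. The adaptors that fell were SHB (-0.43), IRS4 (-0.35), GRB10 (-0.26) and CRK (-0.21), with edgeR adjusted p between 0.00797 and 0.0381. IRS4, an insulin receptor substrate abundant in this line, was also the adaptor that fell with CIC::DUX4 (-0.40, edgeR adjusted p = 0.0142), from 1309.8 to 992 CPM. Leaving out 1 library at a time, these 4 kept the call in 8, 6, 5 and 4 of 9 refits with CIC::NUTM1, in the order named, and GRB7 in 5. The IRS4 call with CIC::DUX4 was kept in 6 of 9 (highest edgeR adjusted p = 0.057).

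Among 35 enzymes and regulators that bind receptors or their adaptors, 32 were tested. For CIC::DUX4, 4 were called higher and 0 lower (1 lower at an unadjusted p under 0.05 in edgeR, 0 called lower by DESeq2 or limma). With CIC::NUTM1, 11 were higher and 2 lower. The called genes made up 12.5% and 40.6% of those tested, beside 8.24% and 15.3% of all tested genes. The median log2 fold changes were 0.09 and 0.17. This list too was chosen with earlier results of these data known, so its shares are not separate evidence. ERRFI1, an inhibitor of the epidermal growth factor receptor, stood at 33.3, 34.8 and 31.4 CPM in empty vector, 107, 77.4 and 81.7 with CIC::DUX4, and 159, 114 and 162 with CIC::NUTM1. It rose by 1.42 ± 0.15 (SE, log2) with CIC::DUX4 (edgeR adjusted p = 8.91e-05) and by 2.12 ± 0.15 with CIC::NUTM1 (edgeR adjusted p = 1.77e-06). CBLB, a ubiquitin ligase of activated receptors, rose by 1.18 ± 0.14 with CIC::DUX4, SOCS3, an inhibitor of cytokine receptors, by 1.56 ± 0.39, and the kinase ABL1 by 0.50 ± 0.08, with edgeR adjusted p of at most 0.00959. With CIC::NUTM1, SOCS3 (1.29), SOCS1 (1.10), the PI3-kinase subunit PIK3CA (0.96) and CD2AP (0.72), which binds CBL proteins, also rose. The PI3-kinase subunit PIK3CB (-0.45) and the RAS GTPase-activating protein RASA1 (-0.32) fell, with edgeR adjusted p of 0.0152 and 0.0341. SOCS3, SOCS1, PIK3CB and RASA1 kept the call with CIC::NUTM1 in 5, 6, 6 and 4 of 9 refits that left out 1 library, and SOCS3 with CIC::DUX4 in 6.

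Between the fusions, 2 of the tested adaptors were called higher with CIC::NUTM1 and 0 lower by edgeR, DESeq2 or limma, while 3 were lower at an unadjusted p under 0.05 (edgeR). That is 5.56% of the list, beside 6.61% of all tested genes. These 2 were NEDD9 and IRS2, an insulin receptor substrate. Of the partner genes, 3 were higher, namely ERRFI1, PIK3CA and CD2AP, and CBLB was lower, which is 12.5% of that list.

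**Figure D4:**
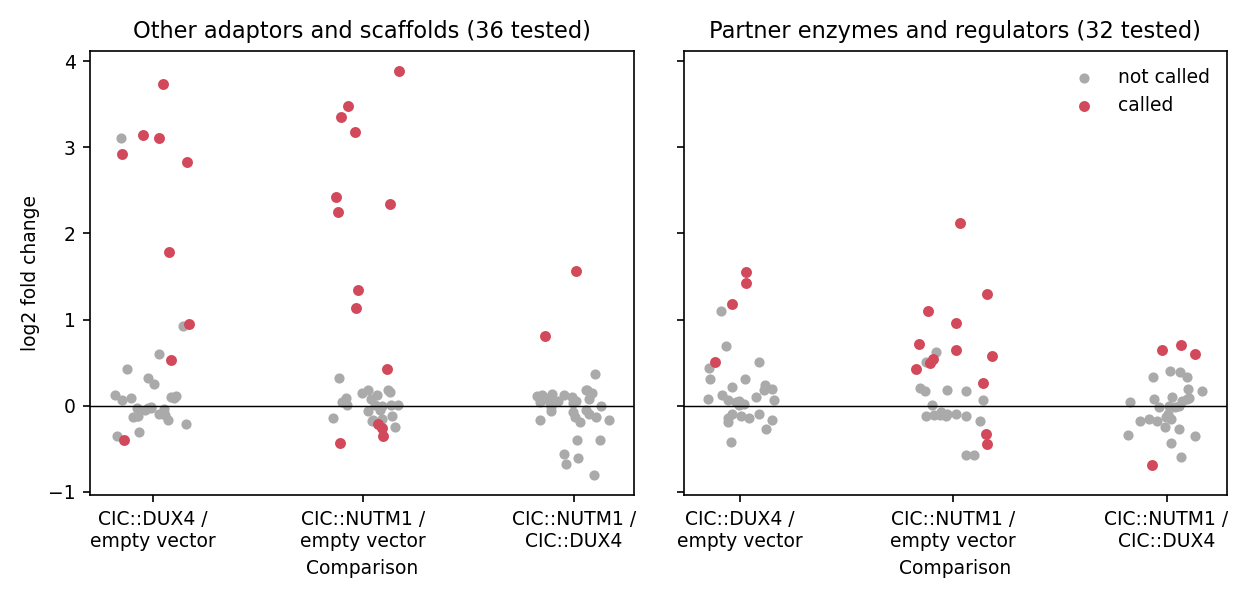
Log2 fold change of the 36 other tested adaptors (left) and the 32 tested partner genes (right) in the 3 comparisons, with called genes in red and uncalled genes in grey. The highest point is NOSTRIN at 3.89 with CIC::NUTM1, which is 7.40 without empty vector replicate 2.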

How the data were processed

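Gene expression of 9 libraries was read from 2 deposited tables. Raw counts for 62700 Ensembl genes were deposited, with the authors' log2 CPM of 15811 named genes, used only in an alternative. Alignment used STAR 2.7.10b on GRCh38, and R 4.2.2 and edgeR 3.40.2 were used, per the submitters' processing notes. The counting program, annotation and use of strand in counting are not given in the sources used here. Libraries came from a directional kit after polyA enrichment, per the labels' protocols.

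Groups were taken from the labels. Of the 62700 IDs, 62622 had a symbol in the table of gene names. Positions and exon lengths came from GENCODE 29, and promoter windows from RefSeq (GRCh38.p14). Genes were kept by filterByExpr (17576 of 34765 with at least 1 count), scaled by TMM and tested with edgeR 4.0.16 in R 4.3.3 by a robust quasi-likelihood fit with 1 mean per group over all 9 libraries. Benjamini-Hochberg adjustment covered all tested genes, and an adjusted p under 0.05 was a call. The SE of a log2 fold change was derived from its F statistic. Levels are TMM-scaled CPM. Distances between genes used log2 CPM with a prior count of 2. A floor of 3 counts and exact 95% intervals of pooled counts cover counting error only.

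The members and gene lists were chosen with earlier results of these data known. Named genes are all members, the called genes of each list (at most 5 rising and 5 falling most per comparison) and the 3 genes nearest to SHC3 and SHC4. Libraries of a group differed by more than counting noise (chi-square per degree of freedom 4.62 to 7.35). P-values measure the spread between transfections of 1 cell line. Alternatives were DESeq2 size factors, library totals, no filter, DESeq2 1.42.0, limma 3.58.1 on the deposited log2 CPM, a replicate block, a fit of 2 groups at a time and each library left out. The scripts were tested on simulated data. Figures were drawn with matplotlib 3.10.9.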

Additional observations from a re-analysis of the deposited data

Results flagged for a closer look

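Of the 36 tested adaptors and the 32 tested partner genes, 2 and 4 responded to a different extent to the fusions in the direct comparison of CIC::NUTM1 with CIC::DUX4 (edgeR quasi-likelihood test, adjusted over all tested genes, log2 scale). These are 5.56% and 12.5% of the lists, beside 6.61% of all tested genes. In each of the 6 the libraries of the fusions did not overlap, as held for 22.0% of all tested genes. The 6 were picked by a call from these same libraries, so this adds no separate evidence. The response of NEDD9 was larger with CIC::NUTM1 by 1.57 (edgeR adjusted p = 2.44e-06). IRS2 was higher with CIC::NUTM1 by 0.81 (edgeR adjusted p = 0.000252), with 36.7, 25.0 and 34.1 CPM against 20.4, 16.2 and 17.5. ERRFI1 was higher by 0.70 (edgeR adjusted p = 0.0146), PIK3CA by 0.65 (edgeR adjusted p = 0.00356) and CD2AP by 0.60 (0.599, edgeR adjusted p = 1.36e-05). CBLB had a difference of -0.69 (edgeR adjusted p = 0.00171), with 17.9, 17.4 and 21.2 CPM with CIC::NUTM1 against 37.1, 28.0 and 25.6 with CIC::DUX4. ERRFI1 kept its call in 6 of 9 refits that left out 1 library, and the other 5 genes kept theirs in all 9. No member was among these genes.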

How the results depend on the processing

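SHC3 and SHC4 were called higher against empty vector under all 7 other settings and in all 9 refits that left out 1 library, for each fusion. Their log2 fold changes ranged from 6.89 to 8.29 over all of these.

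Scaling by library totals gave 1138 lower genes with CIC::NUTM1 and 437 between the fusions, with 1 adaptor lower between them. Without the filter, CIC::DUX4 gave 380.0 lower genes, and 1 member (SHC3) was higher and 1 adaptor lower between the fusions. With only the groups compared, CIC::DUX4 gave 407 lower genes and 1 lower partner gene. The SHC3 and SHC4 share was 54.4% and 59.9% with counts not divided by length, and 53.2% and 58.9% by coding length, an alternative chosen after seeing the data.

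Uncalled members changed sign near 0. SOS1 with CIC::NUTM1 was -0.0036 with DESeq2 size factors, -0.039 with library totals, -0.018 without the filter and -0.0064 in DESeq2. GRB2 was -0.024 with library totals and -0.0012 without the filter. GAB2 with CIC::DUX4 was -0.017 without the filter and -0.0058 with only the groups compared.

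Leaving out 1 library, genes called with CIC::DUX4 ranged from 805 to 1330.0 higher and 60.0 to 312 lower, with CIC::NUTM1 from 278 to 977 lower, and between the fusions from 516 to 940.0 higher and 156 to 324 lower. Adaptors called lower ranged from 0 to 1, 1 to 4 and 0 to 2 in these comparisons, partner genes with CIC::NUTM1 from 7 to 11 higher and 0 to 3 lower, lower partner genes between the fusions from 1 to 2, and members higher between the fusions from 0 to 1. Log2 fold changes with CIC::DUX4 ranged from -0.13 to 0.041 for SHC2, -0.11 to 0.13 for SOS2 and -0.16 to 0.10 for GAB2. With CIC::NUTM1 they ranged from -0.12 to 0.056 for SHC1, -0.22 to 0.060 for SHC2, -0.013 to 0.038 for GRB2, -0.28 to 0.032 for GAB1, -0.089 to 0.090 for SOS1 and -0.19 to 0.048 for SOS2. Between the fusions they ranged from -0.19 to 0.087 for SHC2, -0.23 to 0.13 for SHC4 and -0.11 to 0.20 for GAB1. The cause was not tested.

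Over all tested genes, correlations of deviations between libraries with the same replicate number were -0.03 to 0.08 in 9 pairs. SHC3, however, was highest in replicate 1 and lowest in replicate 2 of every group. Its deviations from the group mean (log2) were 0.71, 0.35 and 0.23 in replicate 1 of empty vector, CIC::DUX4 and CIC::NUTM1. In replicate 2 they were -0.50, -0.23 and -0.34. The empty vector part of this order rests on 8, 5 and 5 counts in replicates 1 to 3. Replicates 2 and 3 thus differ there only through library size. SHC4 was also highest in replicate 1 of every group, and lowest in replicate 2 with both fusions. In empty vector its order rests on 9, 7 and 1 counts. Whether members vary together by replicate number was not tested. The labels place replicates on separate days without saying that a number marks a shared day, so the numbers were not used as pairs in the main test. With the replicate block, 1 member was called higher between the fusions, SHC3 at 0.45 (edgeR adjusted p = 0.00643), and no other call of a member changed. A coding length from RefSeq proteins was not run. Depth limits SHC3 and SHC4 in empty vector, where 18 and 17 counts set the base of the fold changes.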

Other observations

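The balance between SHC3 and SHC4 was a pattern noticed after the values were seen, and it was not tested. The ratio of SHC3 to SHC4 counts per kb was 0.679, 0.581 and 0.604 in the CIC::DUX4 libraries. It was 0.839, 0.969 and 0.889 in the CIC::NUTM1 libraries, so the groups did not overlap. Both genes were lowest in replicate 2 of each fusion group. In CIC::NUTM1 replicate 2 this ratio was the highest of the 9 libraries apart from empty vector replicate 3. In CIC::DUX4 replicate 2 it was the lowest of its group. In empty vector the ratio rested on 5 to 8 counts of SHC3 and 1 to 9 counts of SHC4, and it was 0.543, 0.436 and 3.05.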
